A study of Homo sapiens with 90 samples.

Results

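Imazalil, an imidazole fungicide, and 2,4-D (2,4-dichlorophenoxyacetic acid), a phenoxyacetic acid herbicide, were compared at 10 µM, their highest shared concentration, in A673 cells. The comparison took the 54 arrays of the 90 deposited columns that were exposed to either chemical. For each chemical, the 3 arrays at 10 µM were set against the 24 arrays at its 8 lower concentrations (from 0.001 to 3 µM, 3 arrays each), and the difference found with 2,4-D was subtracted from the difference found with imazalil. A673 is an established line of Ewing sarcoma, a tumour driven by the EWSR1-FLI1 fusion. All groups shared this line, a 24 h exposure and the DMSO vehicle at 0.2%, and the DMSO columns were not part of the comparison. The values describe 1 cell line.

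Azole fungicides bind the heme of the fungal lanosterol demethylase, whose human counterpart is CYP51A1, and many also bind other cytochrome P450 enzymes and nuclear receptors. The herbicide 2,4-D mimics the plant hormone auxin, for which animal cells have no dedicated receptor, and phenoxyacetic acids are known as weak peroxisome proliferators in rodents, where PPAR receptors switch on genes of fatty acid oxidation. In mammalian cells, CPT1A loads long-chain fatty acids onto carnitine for mitochondrial oxidation, the transcription factors MondoA and ChREBP switch on TXNIP when glucose-derived sugars accumulate, and ATF4 switches on genes of amino acid synthesis and import under amino acid or endoplasmic reticulum stress.

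Total RNA was hybridized to Affymetrix arrays with perfect-match probes only, and values are log2 levels per probe set that the authors had normalized within the 30 columns of each chemical. A level therefore has no meaning across chemicals, and only differences within a chemical were compared. Array medians ranged from 3.34 to 3.39 with imazalil and from 3.40 to 3.46 with 2,4-D, with 3.34 to 3.37 at 10 µM imazalil and 3.43 to 3.45 at 10 µM 2,4-D. The 3′ minus 5′ signal of the ACTB control probe sets, a sign of RNA quality, was 0.41 to 0.53 at 10 µM imazalil against 0.38 to 0.60 below it, and 0.44 to 0.53 at 10 µM 2,4-D against 0.43 to 0.69. All 8 measured markers of Ewing sarcoma stood in the top decile of levels, and 0 of 7 hepatocyte, 0 of 4 leukocyte, 1 of 9 MCF-7 (KRT18) and 1 of 6 fibroblast markers (COL1A2) did, with 4 of the MCF-7 and 4 of the fibroblast markers above the median level. In each replicate of each chemical, the running number fell in step with rising concentration, so the array at 10 µM carried the lowest. A covariate for that number also takes up a graded response to concentration, so it cannot tell running order from concentration. With it, 5 probe sets passed with imazalil (TXNIP and EGR1 on 2 probe sets each, and GSTM4, a glutathione transferase named after its value was seen) and 0 with 2,4-D (3438 at an unadjusted p under 0.05), against 23 and 7 without the covariate. According to the methods, the 3 replicates were separate experiments on separate batches of cells.

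No probe set passed the test of the difference between the chemicals (0 of 54613, or 0%, at an adjusted p under 0.05, limma with Benjamini-Hochberg adjustment over all probe sets). At an unadjusted p under 0.05, 3611 probe sets differed (6.61%), where 5% would be 2731. Of these, 1899 (3.48%) were higher and 1712 (3.13%) lower with imazalil. The smallest adjusted p was 0.113, for CPT1A. The median standard error of a difference was 0.12 on the log2 scale. Against the lower concentrations of the same chemical, 23 probe sets passed at 10 µM imazalil (0.0421%), of which 7 rose and 16 fell. With 2,4-D 7 passed (0.0128%), of which 4 rose and 3 fell. Of the 23 probe sets that passed with imazalil, 20 had an unadjusted p under 0.05 in the difference, 15 of them lower with imazalil, and of the 7 with 2,4-D, 6 had one. These counts share their 10 µM arrays with the comparison of the chemicals and are therefore not independent of it. With the DMSO columns of its own set as the reference, 0 probe sets passed in either chemical (2576 with imazalil and 2020 with 2,4-D at an unadjusted p under 0.05). That fit held 3 DMSO columns per chemical in place of the 24 lower arrays. It therefore had less power, and its counts cannot show that a difference from DMSO is absent. The titles label these columns as common DMSO controls normalized with each chemical, so the references of the chemicals are not independent. Without replicate 2 the count with imazalil was 6, without the 10 µM array of that replicate alone it was 8, and without replicate 3 it was 37. With 2,4-D it ran from 1 without replicate 1 to 17 without replicate 2.

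The names that follow were fixed by rule. Since none passed, the rule took the 8 genes per direction with the smallest p, none of which passed the test of the difference. Higher with imazalil were CPT1A, SNORC, RBM4, VPS13B, SETDB2, RORA, BPIFB6 and SHFL, by 0.34 to 0.73 on the log2 scale. Lower were TXNIP, TRMT1, EGR1, HAP1, DKKL1, PCP4, ADAMTS17 and LINC01718, by -0.34 to -0.63. In all 16 the 3 imazalil differences, one for each replicate, did not overlap the 3 of 2,4-D, which was also true of 2565 probe sets in the higher direction (4.7%) and 2503 in the lower (4.58%). Against the lower concentrations of the same chemical, 4 of the 16 passed with imazalil (CPT1A, RORA, TXNIP and EGR1), 1 with 2,4-D (RBM4) and 11 with neither. In 9 of them all 3 differences had one sign with imazalil and the other with 2,4-D. Choice by smallest p of the difference favours such genes, and their share over all probe sets was not counted. By level, 13 of the 16 stood below the 75th percentile of all probe sets and 6 below the median. These shares are near those that the cut-offs set over all probe sets, so the 16 were not clearly dimmer as a group.

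**Figure D1:**
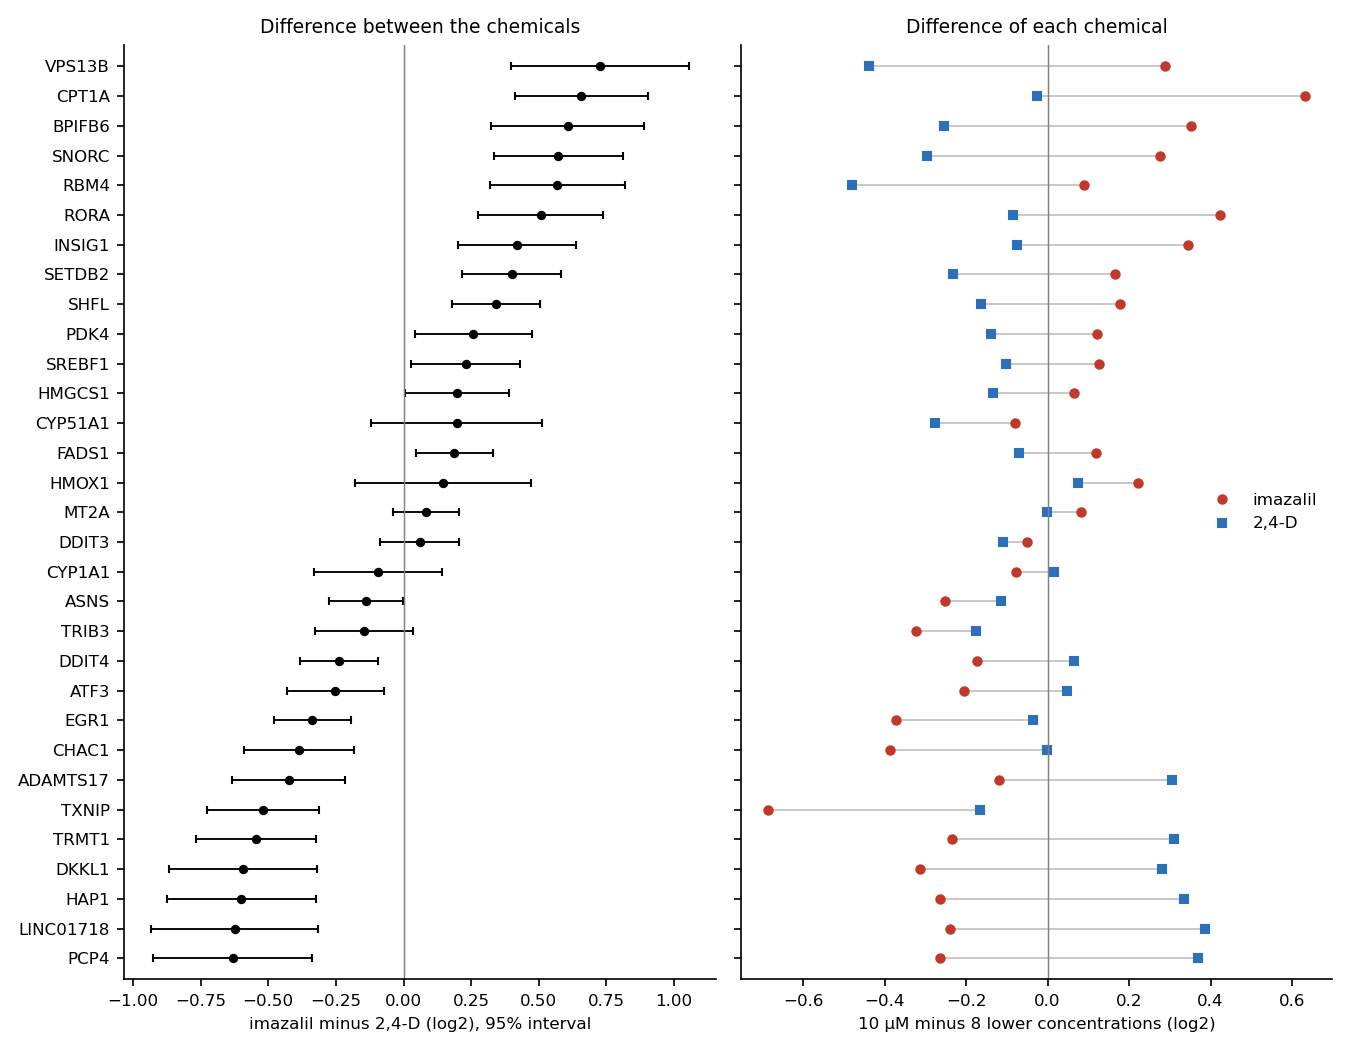
Log2 differences of the 16 genes with the smallest p and of 15 further genes that the rule names, 1 probe set each. Left, the difference between imazalil and 2,4-D at 10 µM with its 95% interval. Right, the difference of each chemical from its own 8 lower concentrations (circles, imazalil; squares, 2,4-D). CPT1A (0.63 with imazalil, -0.03 with 2,4-D) and TXNIP (-0.69 and -0.17) lay farther from 0 with imazalil and RBM4 (0.09 and -0.48) with 2,4-D, while PCP4 (-0.26 and 0.37) lay on both sides of 0.

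CPT1A, the gate of mitochondrial fatty acid oxidation, rose with imazalil and did not pass the test with 2,4-D. Its 3 arrays at 10 µM imazalil had log2 levels of 9.06, 9.38 and 9.13, and the 24 at lower imazalil ran from 8.25 through a median of 8.53 to 8.99. At 10 µM 2,4-D the levels were 8.52, 8.69 and 8.22, with 8.31, 8.52 and 8.65 as the lowest, median and highest below it. Every imazalil array at 10 µM was thus above all 24 at lower concentrations, while the 2,4-D arrays at 10 µM spread on both sides of the lower ones. The difference from the lower concentrations was 0.63 with imazalil (SE 0.09, adjusted p = 3.63e-05) and -0.03 with 2,4-D (95% interval -0.20 to 0.15, adjusted p = 0.972). The imazalil difference passed in all 9 fits that left out a replicate or a 10 µM array. It stood at 0.40 (adjusted p = 0.107) with the running number, which follows concentration, as a covariate. Against the DMSO columns, with fewer arrays, it stood at 0.66 and did not pass. The difference between the chemicals was 0.66 (SE 0.12, 95% interval 0.41 to 0.91, a ratio of 1.58, adjusted p = 0.113). The other CPT1A probe sets gave 0.76, 0.60 and 0.16.

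Below 10 µM the CPT1A difference had the same sign. Relative to the 6 concentrations from 0.001 to 0.3 µM, imazalil minus 2,4-D stood at 0.30 at 1 µM and at 0.44 at 3 µM (SE 0.09, unadjusted p = 3.95e-06, adjusted p = 0.140). Imazalil itself stood at 0.30 and 0.42 and 2,4-D at 0.00 and -0.03. The 1 and 3 µM arrays are part of the 8 lower concentrations. With the 6 concentrations up to 0.3 µM as the reference, 4 probe sets passed at 10 µM: CPT1A on 3 probe sets, at 0.75 (adjusted p = 7.35e-07), 0.82 and 0.71 (adjusted p = 0.0336 for both), and TXNIP at -0.53 (adjusted p = 0.0336).

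TXNIP encodes a thioredoxin-binding protein that restrains glucose uptake. Its log2 levels at 10 µM imazalil were 6.37, 6.65 and 6.46, below all 24 lower arrays (6.85, median 7.20, 7.47). At 10 µM 2,4-D they were 7.26, 7.21 and 6.99, and the lower arrays ran from 7.08 through 7.31 to 7.61. At 10 µM imazalil TXNIP was lower by 0.69 (SE 0.07, adjusted p = 4.70e-08), the smallest p of the comparison with lower imazalil. With the running number as a covariate it stood at -0.64 (adjusted p = 0.000104), and it did not pass against the DMSO columns. The difference of 2,4-D was -0.17 (95% interval -0.31 to -0.02, adjusted p = 0.586), and between the chemicals it was -0.52 (SE 0.10, 95% interval -0.73 to -0.31, adjusted p = 0.147). The other TXNIP probe sets gave -0.55 and -0.54, and fell by 0.59 and 0.67 with imazalil.

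EGR1, an immediate early transcription factor that growth factor signalling switches on, fell with imazalil on 3 probe sets, by 0.37, 0.54 and 0.41 (adjusted p = 2.75e-05, 5.77e-05 and 0.00546). On the first of these the levels at 10 µM imazalil were 8.71, 8.83 and 8.94, all below the 24 lower arrays (8.98, median 9.19, 9.36). At 10 µM 2,4-D they were 9.12, 9.14 and 9.39, within the 9.06 to 9.47 of the lower arrays. The difference between the chemicals was -0.34 (SE 0.07, 95% interval -0.48 to -0.19, adjusted p = 0.147) on that probe set and -0.50 and -0.35 on the others. With the running number as a covariate, EGR1 stood at -0.35 and -0.48 with imazalil on the first and second probe sets (adjusted p = 0.0151 and 0.0491). The third did not pass there, and none passed against the DMSO columns. ETV5, an ETS factor downstream of the ERK kinases, fell by 0.27 with imazalil (adjusted p = 0.00338) and stood at -0.08 with 2,4-D and at -0.19 between them, but 2 of its other 3 probe sets stood at 0.09 and 0.04 between the chemicals.

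RORA encodes a nuclear receptor of the circadian clock. Its probe set lay at the 16.8th percentile of levels. The levels were 2.84, 3.14 and 3.25 at 10 µM imazalil against 2.36 to 2.86 below it, so that the lowest of them lay within the range of the lower arrays. RORA rose by 0.42 with imazalil (adjusted p = 0.0129) and stood at -0.08 with 2,4-D. The rise passed in 5 of 9 fits that left out a replicate or a 10 µM array, and not without replicate 2 or 3 (adjusted p up to 0.317). Among the 5 were all 3 fits that left out only a 10 µM array of 2,4-D. The difference between the chemicals was 0.51 (SE 0.12, adjusted p = 0.244), and the 9 other RORA probe sets ran from -0.35 to 0.42.

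**Figure D2:**
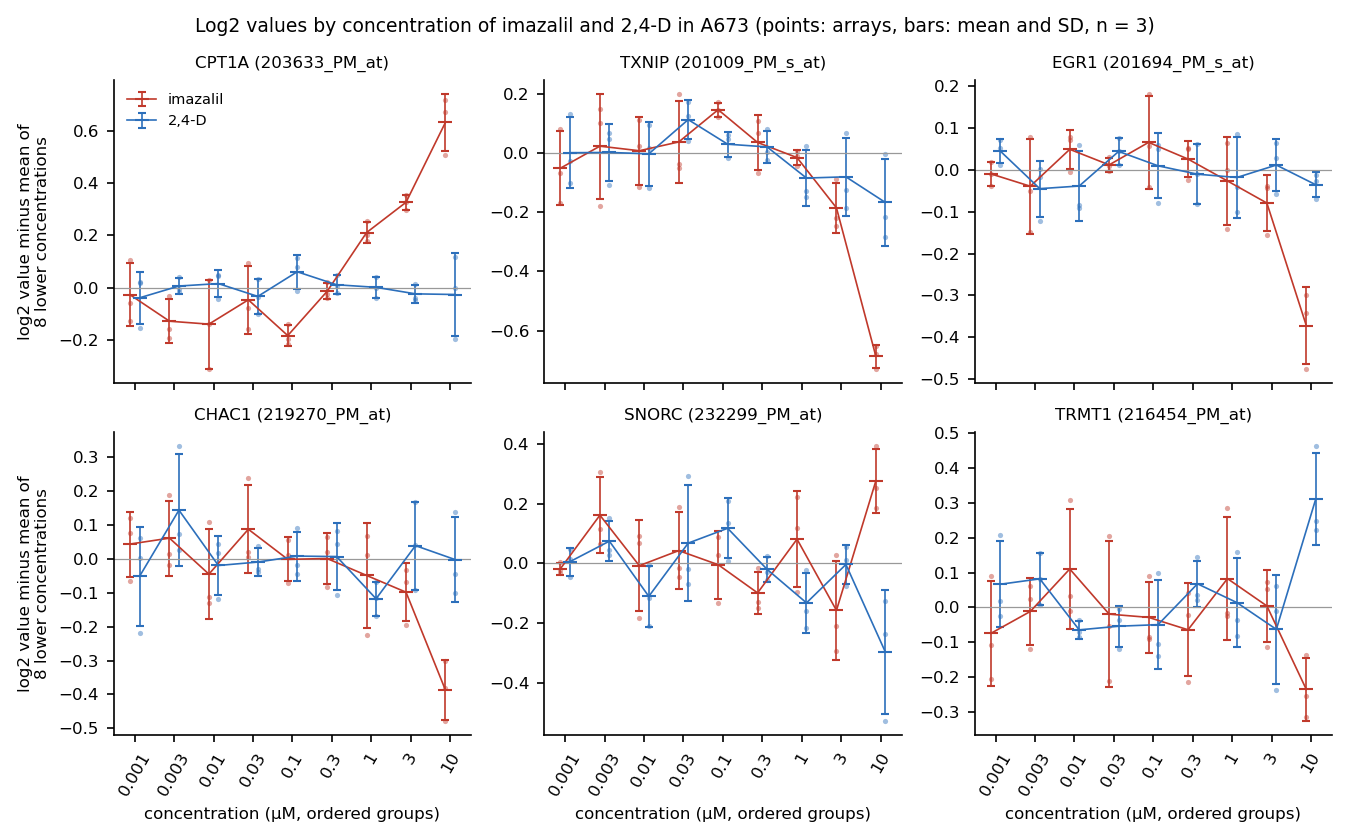
Log2 values minus the mean of the 8 lower concentrations of the same chemical and replicate (vertical axis) by concentration in µM (horizontal axis, evenly spaced) for 6 genes. Each point is an array, and the bars give the mean ± SD of 3 arrays. With imazalil, CPT1A stood at 0.21 at 1 µM, 0.33 at 3 µM and 0.63 at 10 µM, TXNIP at -0.19 at 3 µM and -0.69 at 10 µM, and EGR1 and CHAC1 at -0.37 and -0.39 at 10 µM. SNORC stood at 0.28 with imazalil and -0.30 with 2,4-D at 10 µM, and TRMT1 at -0.24 and 0.31.

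Several of the 16 had opposite signs in the chemicals, which their choice by smallest p favours. TRMT1, HAP1, PCP4 and SNORC stood at the 22.6th, 32.7th, 44.4th and 52.2nd percentile of levels. TRMT1, a tRNA methyltransferase, had 2.61, 2.61 and 2.49 at 10 µM imazalil and 3.02, 3.28 and 2.92 at 10 µM 2,4-D, with medians of 2.79 and 2.78 at the lower concentrations. Its difference of -0.55 (SE 0.11) came from a probe set at the 22.6th percentile of levels, and its brighter probe sets stood at -0.07 and 0.04. SNORC, a cartilage proteoglycan, had 3.81, 3.63 and 3.74 at 10 µM imazalil, with a median of 3.44 below it, and 2.99, 3.37 and 3.23 at 10 µM 2,4-D, with a median of 3.49 below it. It thus stood at 0.28 within imazalil and -0.30 within 2,4-D, and the difference between these was 0.57 (SE 0.12), while its other probe set gave -0.11. PCP4, a small calmodulin regulator, had 2.86, 2.91 and 2.69 at 10 µM imazalil, with a median of 3.07 below it, and 3.86, 3.64 and 3.42 at 10 µM 2,4-D, with a median of 3.24 below it. The within-chemical differences were -0.26 and 0.37, and they differed by -0.63 (SE 0.15). HAP1, the huntingtin-associated protein, stood at -0.60 (SE 0.14) and its 2 other probe sets at 0.06 and 0.03.

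RBM4, a splicing factor, was the 1 gene of the 16 that passed with 2,4-D. Its levels at 10 µM 2,4-D were 5.67, 5.63 and 6.13, and the 24 lower arrays ran from 6.12 through 6.28 to 6.55, so that 1 array at 10 µM lay within their range. RBM4 fell by 0.48 with 2,4-D (adjusted p = 0.0381) and stood at 0.09 with imazalil. The difference was 0.57 (SE 0.12, adjusted p = 0.209), while the brightest RBM4 probe set stood at 0.02. The other named genes that passed with 2,4-D were RPF1, a ribosome assembly factor, which rose by 0.43, and the zinc finger gene ZNF813, which fell by 0.58. With a replicate or a 10 µM array left out, RBM4 and RPF1 passed in 5 of 9 fits (neither without replicate 1 or 2) and ZNF813 in 3 of 9, with adjusted p up to 0.320, 0.264 and 0.198. Those 3 fits left out only a 10 µM array of imazalil, and RBM4 and RPF1 passed in them too. RPF1 and ZNF813 were named after their values were seen, and the remaining 4 probe sets had no single gene symbol.

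Of the lists, that of ATF4 and amino acid response genes held the most members that passed with imazalil. Of its 29 measured genes, 29 stood below 0 with imazalil and 22 with 2,4-D, and 24 were lower with imazalil than with 2,4-D. The median was -0.15 with imazalil, -0.08 with 2,4-D and -0.05 for the difference, against 0.00 for each over all 19774 genes. With fenbuconazole, the other azole of the series, the list median at 10 µM was -0.34, so the fall was not particular to imazalil. The 3 replicates gave list medians of -0.09, -0.17 and -0.15 with imazalil and -0.01, -0.11 and -0.06 with 2,4-D. Over all 19774 genes, each by its brightest probe set, 11 fell and 2 rose with imazalil. Of the 29, 5 passed over all probe sets and all fell: CTH, which makes cysteine, by 0.41 (adjusted p = 0.000959), CHAC1, which degrades glutathione, by 0.39 (adjusted p = 0.0068), TRIB3, a pseudokinase that restrains ATF4, by 0.32 (adjusted p = 0.0154), PCK2, the mitochondrial phosphoenolpyruvate carboxykinase, by 0.32 (adjusted p = 0.0329) and ASNS, the asparagine synthetase, by 0.25 (adjusted p = 0.0111). GCAT, a glycine-forming enzyme of threonine breakdown that is not on the list, fell by 0.28 (CTH and GCAT were named after their values were seen). Of 9 fits that left out a replicate or a 10 µM array, 3 left out only a 10 µM array of 2,4-D, and all 5 genes passed in those. CTH passed in 7 of the 9, ASNS and PCK2 in 5, and CHAC1 and TRIB3 in those 3 alone. Without replicate 2 none of the 5 passed. None passed with 2,4-D, where the same genes stood at -0.17, 0.00, -0.18, -0.08 and -0.11. Between the chemicals 0 passed and 6 had an unadjusted p under 0.05, all lower with imazalil (20.7% of the list, against 621 of 19774 genes or 3.14% in that direction).

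CHAC1 was the member with the smallest p between the chemicals. Its levels at 10 µM imazalil were 6.06, 6.27 and 5.75, and the lower arrays ran from 6.12 through 6.44 to 6.68. At 10 µM 2,4-D they were 6.77, 6.69 and 6.25, inside the 6.13 to 7.07 of the lower arrays. Only 1 of the 3 imazalil arrays lay within the range of the lower ones. The difference was -0.39 (SE 0.10, 95% interval -0.59 to -0.18, unadjusted p = 0.000388, adjusted p = 0.358). DDIT4, an inhibitor of the growth regulator mTORC1, stood at -0.24 (SE 0.07) and ATF3, a stress-induced factor of the same family as ATF4, at -0.25 (SE 0.09). DDIT3, the death-associated factor CHOP, stood at 0.06 (95% interval -0.09 to 0.21).

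**Figure D3:**
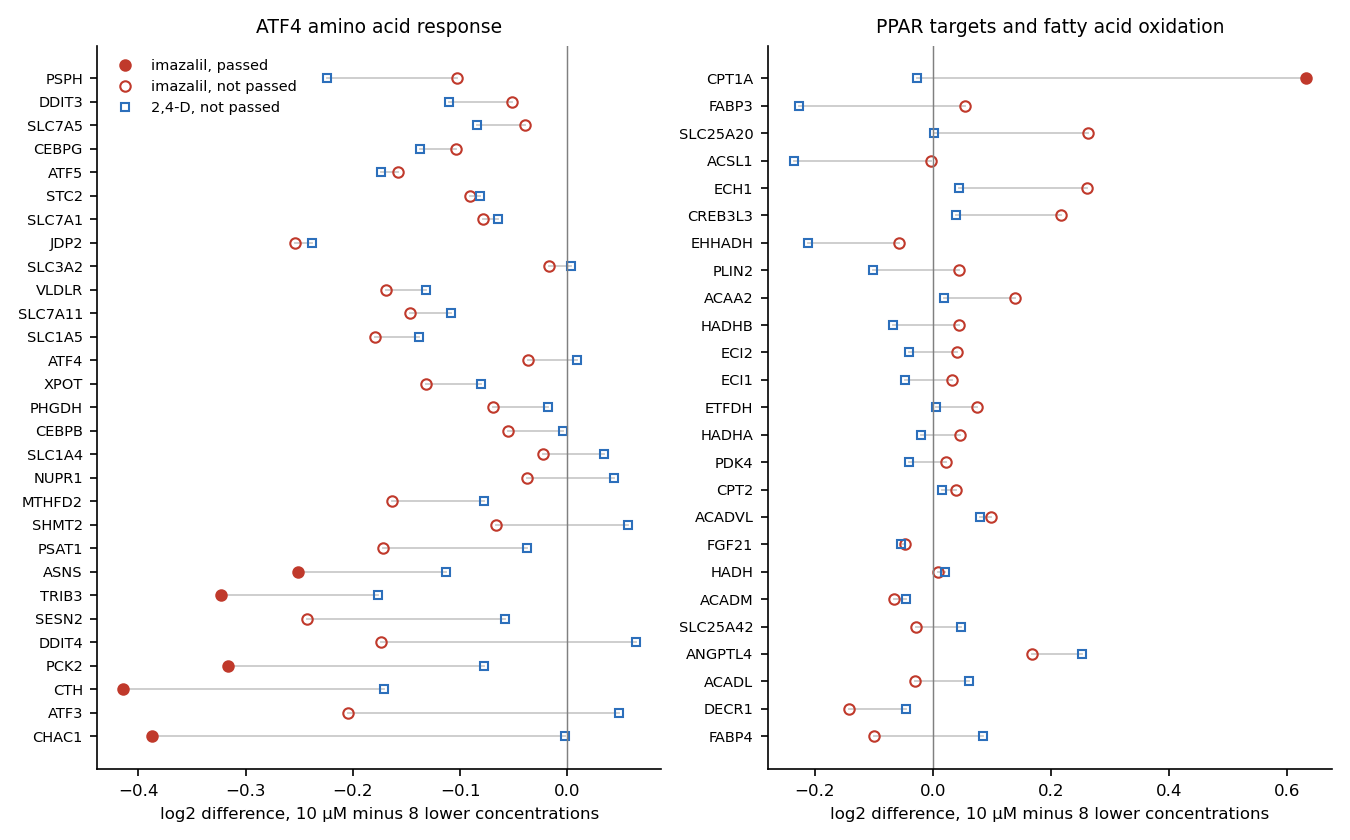
Log2 difference of 10 µM from the 8 lower concentrations for each measured gene of the ATF4 list (left, 29 genes) and of the list of PPAR targets and fatty acid oxidation (right, 25 genes), ordered by the difference between the chemicals. Circles are imazalil (filled where the gene passed over all probe sets) and squares are 2,4-D. On the left all 29 circles lie below 0 and 5 are filled. On the right CPT1A is the filled circle, at 0.63.

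The promoters of 3 genes that fell with imazalil are shown because each holds, in the 250 bases before its RefSeq start (build GRCh38.p14), a motif of a factor known to act on its list. In CHAC1 (chr15:40953221-40953470, plus strand) and ASNS (chr7:97872409-97872658, minus strand), capitals mark TGATGNAA, the amino acid response element that ATF4 with a partner binds, read on both strands (in CHAC1 it lies on the opposite strand). In ASNS it spans 68 to 61 bases before the start. In EGR1 (chr5:138465229-138465478, plus strand), capitals mark 2 CArG boxes, the elements of serum response factor, at 105 to 96 and 83 to 74 bases before the start. Sequences run 5′ to 3′ along the gene's strand.
CHAC1: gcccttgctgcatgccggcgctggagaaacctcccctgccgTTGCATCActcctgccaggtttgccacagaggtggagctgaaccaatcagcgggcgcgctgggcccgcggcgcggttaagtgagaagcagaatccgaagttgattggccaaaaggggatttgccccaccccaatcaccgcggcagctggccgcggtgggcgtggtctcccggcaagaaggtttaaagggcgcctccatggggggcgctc
ASNS: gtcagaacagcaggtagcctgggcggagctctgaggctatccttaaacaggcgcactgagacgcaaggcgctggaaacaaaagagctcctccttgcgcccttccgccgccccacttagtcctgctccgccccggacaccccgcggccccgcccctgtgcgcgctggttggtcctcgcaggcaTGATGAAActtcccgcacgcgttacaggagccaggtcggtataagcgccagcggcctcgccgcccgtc
EGR1: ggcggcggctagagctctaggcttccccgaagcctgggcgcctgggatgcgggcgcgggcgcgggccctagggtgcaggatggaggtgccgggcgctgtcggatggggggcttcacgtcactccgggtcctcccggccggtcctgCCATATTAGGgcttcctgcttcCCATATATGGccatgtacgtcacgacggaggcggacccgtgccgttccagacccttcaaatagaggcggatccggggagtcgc
The amino acid response element was found in at least 1 such window of 6 of the 25 genes of the ATF4 list that had one (24%), and in 1104 of all 35116 windows (3.14%). The CArG box was found in 2 of the 18 immediate early genes that had a window (11.1%) and in 407 of all windows (1.16%). The E-box CACGTG was found in 5 of the 12 MondoA and ChREBP targets that had a window (41.7%) and in 2228 of all windows (6.34%). The list shares count genes and the others count windows, and a gene can have several windows, so they are not like measures. No window of TRIB3, CTH, PCK2 or GCAT held the amino acid response element, and none of CPT1A or TXNIP held it, a CArG box or this exact E-box. Each of the 3 windows shown held matches to 1 of these motifs alone, and a match is a description of the sequence.

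Lipid genes were higher with imazalil than with 2,4-D in most members, by small amounts. Of 14 genes of fatty acid synthesis, 12 were higher (median 0.06), of 20 of cholesterol synthesis and uptake 14 (median 0.04), and of 25 PPAR targets and genes of fatty acid oxidation 18 (median 0.07). Over all genes 10027 of 19774 were higher, with a median of 0.00. For the cholesterol list the replicate medians overlapped, at 0.10, 0.02 and 0.09 with imazalil and 0.03, 0.06 and -0.01 with 2,4-D. Its median difference between the chemicals at 3 µM was -0.02. In the fatty acid and PPAR lists the replicate medians of the chemicals did not overlap. At an unadjusted p under 0.05, 3 fatty acid, 4 cholesterol and 3 PPAR list members were higher, and 624 of the 19774 genes were. CPT1A was the 1 member that passed in imazalil against its lower concentrations, and none passed with 2,4-D or between the chemicals. Among cholesterol genes, LSS, the lanosterol synthase, stood at 0.19 (SE 0.07), SREBF2, the regulator of sterol synthesis, at 0.24 (SE 0.10), and HMGCS1, an early enzyme of the pathway, at 0.20 (SE 0.10). CYP51A1, the human lanosterol demethylase, stood at 0.20 with an interval from -0.12 to 0.51 on its probe set of smallest p, and at -0.05 on its brightest. SQLE, the squalene epoxidase, stood at 0.25 (95% interval -0.08 to 0.58) and at -0.02 on its brightest probe set.

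INSIG1, which holds the sterol sensor in the endoplasmic reticulum, had the smallest p of the sterol genes that the rule always names. Its levels at 10 µM imazalil were 7.20, 7.33 and 7.23 on the probe set with the smallest p, and the lower arrays ran from 6.62 through 6.96 to 7.25. At 10 µM 2,4-D they were 6.72, 7.06 and 6.79, and 6.65 to 7.35 below it. The difference was 0.42 (SE 0.11, 95% interval 0.20 to 0.64, adjusted p = 0.358), and 0.26 and 0.20 on the other probe sets, of which the last is the brightest and stands for INSIG1 in the list. Of the fatty acid genes, FASN, the fatty acid synthase, stood at 0.24, SCD, the stearoyl-CoA desaturase, at 0.20, and SREBF1, their regulator, at 0.23, none with an adjusted p under 0.05. FADS1, a desaturase, stood at 0.19 on its probe set with the smallest p and at 0.11 on its brightest, and PNPLA3, a lipid droplet hydrolase, at 0.17 (95% interval -0.23 to 0.57).

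Other genes of the PPAR list stood closer to 0 than CPT1A. ECH1, an enzyme of fatty acid oxidation, stood at 0.22 (SE 0.09), and FABP3, a fatty acid carrier of muscle, at 0.28 (SE 0.14), at low level. PDK4, a kinase that shuts pyruvate out of oxidation, stood at 0.26 (95% interval 0.04 to 0.47) on 1 dim probe set and at 0.06 and -0.02 on the others. ANGPTL4, a secreted lipase inhibitor, stood at 0.16 with an interval from -0.24 to 0.57 and at -0.09 on its brightest probe set, and FABP4, a fatty acid carrier of fat cells, at -0.19 (SE 0.09).

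**Figure D4:**
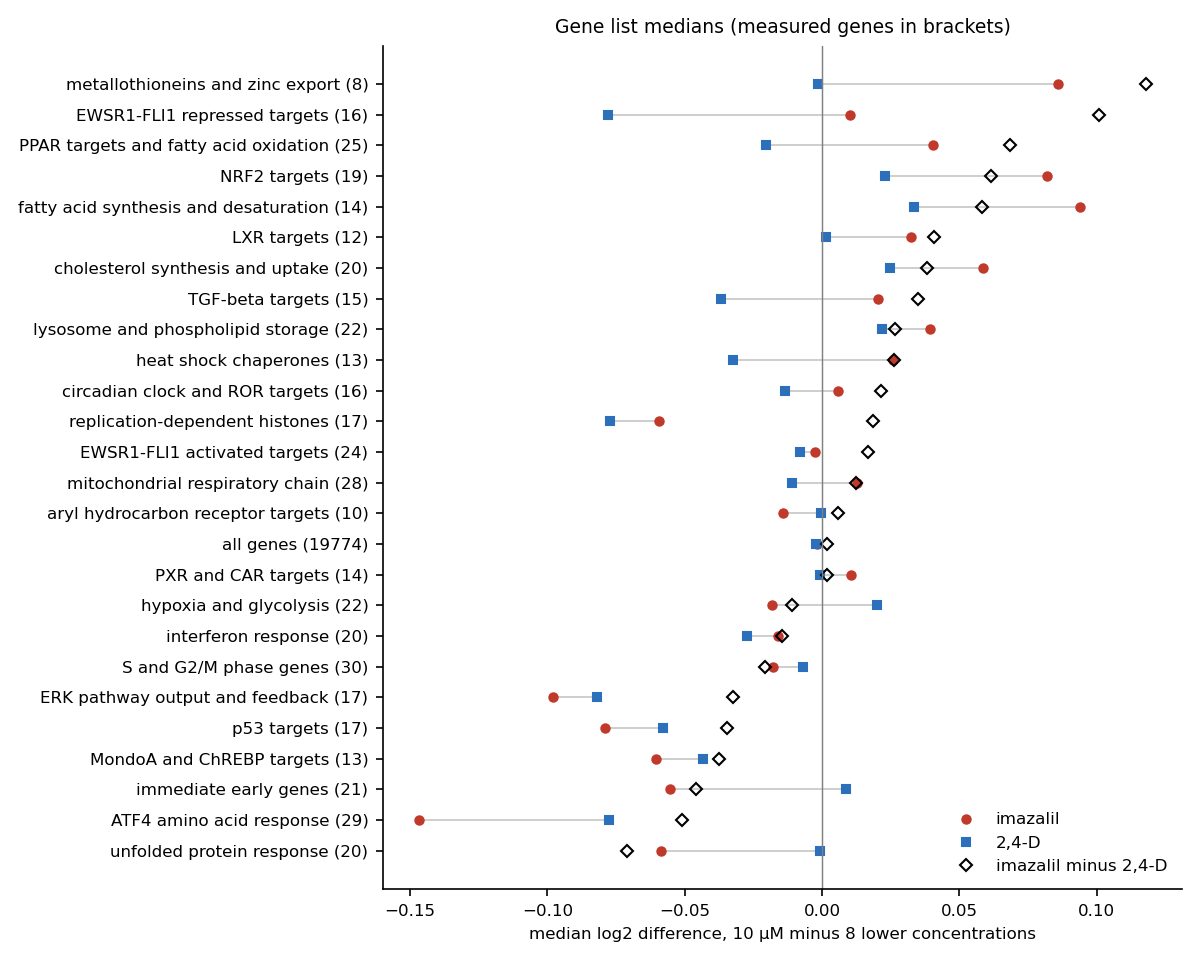
Median log2 difference of 25 gene lists and of all 19774 genes (horizontal axis), with the number of measured genes in brackets. Circles are imazalil at 10 µM against its lower concentrations, squares 2,4-D and diamonds the median over genes of the difference between the chemicals. The ATF4 list stood lowest with imazalil (-0.15), and the differences ran from -0.07 for the unfolded protein response to 0.12 for metallothioneins.

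Genes of the unfolded protein response were lower with imazalil than with 2,4-D in 17 of 20 members (median -0.07). CRELD2, a secreted folding factor of the endoplasmic reticulum, stood at -0.22 (SE 0.07), SDF2L1 at -0.19 (SE 0.07), MANF at -0.14 (SE 0.06) and the lectin chaperone CALR at -0.15 (SE 0.07). With imazalil 19 of the 20 stood below 0 and with 2,4-D 10, and no member passed in either chemical. At an unadjusted p under 0.05, 4 of 20 were lower and 0 higher, against 621 lower (3.14%) and 624 higher (3.16%) of all 19774 genes.

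Of the MondoA and ChREBP targets, TXNIP passed with imazalil and no other member did, and 8 of 13 were lower than with 2,4-D (median -0.04). The closely related arrestin gene ARRDC4 stood at -0.35 with imazalil and at -0.31 with 2,4-D, neither of which passed, and at -0.04 between them (95% interval -0.34 to 0.26). MLX, the binding partner of both factors, stood at -0.15 (SE 0.07). Among the immediate early genes EGR1 passed with imazalil and no other member did. FOSB stood at -0.31 between the chemicals (SE 0.14) and EGR3 at -0.21 (SE 0.15), both at low level. In the ERK list 11 of 17 members were lower (median -0.03), with SPRY4, a feedback inhibitor, at -0.29 (SE 0.11) and ETV4 at -0.25 (95% interval -0.54 to 0.04).

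Genes of chemical defence did not pass in either chemical or between them. CYP1A1, the hallmark target of the aryl hydrocarbon receptor, stood at -0.09 (95% interval -0.33 to 0.14) and CYP1B1 at -0.21 (95% interval -0.49 to 0.07) and at -0.12 on its brightest probe set, and 5 of 10 members of that list were higher. HMOX1, the heme oxygenase of the NRF2 list, stood at 0.15 (95% interval -0.18 to 0.47), and 14 of 19 NRF2 targets were higher (median 0.06, and 0.0066 without replicate 1). PIR, another NRF2 target, stood at 0.18 (SE 0.07) and OSGIN1 at -0.49 (SE 0.18), the latter with 0.41 in 2,4-D. MT2A, a metal-binding metallothionein, stood at 0.08 (95% interval -0.04 to 0.21), and 7 of 8 genes of its list were higher (median 0.12, and 0.06 without replicate 1). The intervals of CYP1B1 and HMOX1 reach differences as large as that of EGR1.

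Of 15 TGF-beta targets, 12 were higher with imazalil, with BAMBI, a decoy receptor, at 0.17 (SE 0.05) and CCN2, a matrix factor, at 0.19 (SE 0.09). Of the 24 EWSR1-FLI1 activated targets 15 were higher (median 0.02), and of the 16 repressed targets 10 (median 0.10, from 0.04 without replicate 3 to 0.09 without replicate 2, and 0.0098 over all probe sets of the genes). The remaining lists, among them the S and G2/M phase genes (median -0.02), the respiratory chain (0.01), PXR and CAR targets (0.00) and hypoxia and glycolysis (-0.01), had medians between -0.03 and 0.04, and no probe set standing for a member of them passed with either chemical, although RORA, a member of the circadian clock list, passed with imazalil on a dimmer probe set than the one that stood for it there.

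Fenbuconazole, a triazole fungicide given to the same cells at the same concentrations, was the other azole of the series. Its list medians at 10 µM were -0.15 for MondoA and ChREBP targets, -0.18 for the ERK list and 0.13 for cholesterol genes. With imazalil these were -0.06, -0.10 and 0.06, so these shifts were not particular to imazalil. For the PPAR list fenbuconazole stood at 0.00 and imazalil at 0.04, and for the unfolded protein response at 0.01 and -0.06. At 10 µM its CPT1A difference was -0.08, and imazalil minus fenbuconazole was 0.71 (SE 0.11, adjusted p = 0.000726) on the first probe set of CPT1A and 0.96 (SE 0.18, adjusted p = 0.0356) on a second. NUDC, a nuclear movement gene named after its value was seen, stood at -0.70 (SE 0.14, adjusted p = 0.0356), and these 3 probe sets were all that passed of 54613, with 3279 at an unadjusted p under 0.05. The NUDC levels at 10 µM were low, at 3.05, 3.00 and 2.60 with imazalil and 2.93, 3.29 and 3.24 with fenbuconazole. Its differences from the lower concentrations were 0.29, 0.68 and 0.66 with fenbuconazole. Without replicate 3, 0 probe sets passed between the azoles, and without replicate 2 none of these 3 did. Without replicate 1, NUDC and the first CPT1A probe set passed, and the second CPT1A probe set did not. The median residual SD was 0.142 with imazalil, 0.139 with 2,4-D and 0.157 with fenbuconazole, while the fit took 1 SD for all. At 3 µM, 0 probe sets passed between imazalil and 2,4-D (3059 at an unadjusted p under 0.05). At 1 µM 1 passed (2878 at an unadjusted p under 0.05), of the non-coding gene LINC03152, at 0.74 (SE 0.12, adjusted p = 0.0149). It did not pass in any fit that left out replicate 1, 2 or 3.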

How the data were processed

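Expression in A673 cells was measured with HT HG-U133+ PM arrays (Affymetrix). The deposited values are log2 levels that the authors made by RMA in Partek, separately for the 30 columns of each chemical, so that only differences within a set were compared. Of 54715 probe sets, 102 controls were left out and 54613 tested (40914 with 1 gene symbol in GEO's platform annotation). The 54 treated arrays were fitted in limma 3.58.1 (R 4.3.3) with 10 µM and lower concentrations as groups of each chemical and chemical by replicate number as the block (46 residual degrees of freedom), with Benjamini-Hochberg adjustment over all probe sets and a threshold of 0.05. The fit was tested on simulated data. The number of arrays limits the precision.

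Named were genes that passed, filled up to 8 per direction by smallest p, a fixed set of genes, and up to 4 members of each of 25 lists with the smallest p. A list gene was represented by its brightest probe set, and other named genes by the probe set of smallest p. Members, lists and genes were chosen with earlier results of these data known. One gene of the fixed set is not reported here. The 36 remaining columns were used only in the comparison with fenbuconazole (27) and as a DMSO reference (9 columns, labelled as common controls normalized with each chemical). Alternatives covered the reference, block, run number, normalization, filters and left-out arrays.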

Additional observations from a re-analysis of the deposited data

Results flagged for a closer look

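The following differences between chemicals passed the test of the difference itself outside the comparison at 10 µM of imazalil with 2,4-D. At 1 µM, LINC03152 stood at 0.744597 on the log2 scale for imazalil minus 2,4-D. Its differences from the concentrations up to 0.3 µM were 0.192, 0.791 and 0.279 with imazalil and -0.316, -0.341 and -0.314 with 2,4-D, all of opposite sign. At 10 µM, imazalil minus fenbuconazole was 0.709841 for CPT1A, where the fenbuconazole differences were -0.121, -0.116 and 0.003 and those of imazalil 0.509, 0.717 and 0.671. A second CPT1A probe set stood at 0.962616. NUDC stood at -0.701807, where the fenbuconazole differences were 0.289, 0.676 and 0.663 and those of imazalil -0.075, 0.004 and -0.406.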

How the results depend on the processing

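The difference between imazalil and 2,4-D at 10 µM, with 0 probe sets passing, gave 4 with the concentrations up to 0.3 µM as reference, 1 with each concentration as its own group (CPT1A), 1 with equal array medians (CPT1A), 1 with 1 probe set per gene (CPT1A), 3 with a trended and robust variance (CPT1A, TXNIP and EGR1) and 0 to 4 with replicates or 10 µM arrays left out. The count was 4 without the 10 µM 2,4-D array of replicate 1 (TAT, LITAF, HAP1 and 1 unnamed probe set) and 1 without replicate 3 (DLEU7-AS1), genes other than HAP1 being named after their values were seen. It stayed at 0 with no replicate block and with the replicate block on paired differences. Imazalil against its lower concentrations (23) gave 11 with no replicate block, 0 against DMSO, 5 with the run number, 36 with a trended and robust variance, 14 with array weights and 6 to 37 with arrays left out. For 2,4-D (7) the counts were 1 with the reference up to 0.3 µM, 0 with each concentration as its own group, 0 against DMSO, 0 with the run number, 0 after a second quantile normalization, 1 without dim probe sets, 0 with 1 probe set per gene, 3 with array weights and 1 to 17 with arrays left out. At 3 µM a trended and robust variance gave 1 in place of 0 (CPT1A). With arrays left out, 0 to 1 passed at 1 µM (never LINC03152), 0 at 3 µM and 0 to 5 for imazalil minus fenbuconazole. The cause of these shifts was not tested.

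Over 22 alternatives, 770 values of 37 named genes kept their direction and side of the threshold, 9 came to pass and 11 turned sign. With the run number ARRDC4 was 0.0057 and PNPLA3 -0.11. With arrays left out ARRDC4 ran from -0.205 to 0.0478, PNPLA3 from -0.0539 to 0.314, CYP51A1 from -0.0234 to 0.379, CYP1B1 from -0.431 to 0.0296 and HMOX1 from -0.0111 to 0.350, while CYP1A1 ran from -0.236 (without replicate 1) to -0.0076 (without replicate 2) and MT2A from 0.035 (without replicate 2) to 0.150 (without replicate 3). Of list medians, 105 moved by less than the replicate spread and 20 by more.

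Arrays with the same replicate number and chemical deviated together on average (mean correlation 0.0774, from -0.118 to 0.320), as did those with the same number and the other chemical (0.0668), against -0.0359 for other numbers, and 50 of 54 arrays were closest to their own number, a hint from the data and not from the labels.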
